A study of Mus musculus with 7 samples.

Results

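The genes described here are 10 enzymes and related transcripts of purine and pyrimidine nucleotide synthesis in mouse granulocytes: Impdh1, Impdh2, the pseudogene Impdh2-ps, Gmps, Hprt, Uckl1, Uck2, Umps, Cad and Ctps. They are 10 of the 51789 genes in a count table of 7 libraries, and all 10 names matched 1 Ensembl gene each. They were chosen because Impdh2-ps and Uckl1 had low values in the knockout libraries, so the comparison of knockout with wild type is a description for all 10 and carries no test. The libraries were labelled as untreated granulocytes, the leukocyte class of neutrophils, eosinophils and basophils, and came from 3 Alox15 knockout (KO) and 4 Alox15 wild-type (WT) samples. Alox15 encodes a lipoxygenase that oxygenates polyunsaturated fatty acids, and the series title concerns ferroptosis of neutrophils in tumours. Age, strain, organ, sorting and the knockout allele are unstated in the labels. They do not say whether replicates were separate animals, so the errors are the spread between libraries, part of which can be technical. Alox15 had 1 count in KO 1 and 0 counts in KO 2, KO 3 and all 4 WT libraries, so it does not check the genotype labels. Xist, the RNA of the inactive X chromosome, stood at 1.75, 382 and 102 CPM in KO 1 to 3 and at 0.896 to 6.11 CPM in WT, and KO 2 and 3 also carry another stem in their sample descriptions than the other 5 libraries. KO 1 is thus the only KO library that shares stem and Xist level with WT, and for KO 2 and 3 these cannot be told apart from genotype.

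Purine nucleotides are built up stepwise to inosine monophosphate (IMP), from which 1 branch leads to AMP and another to GMP. IMP dehydrogenase, encoded by Impdh1 and Impdh2, catalyses the step that commits IMP to GMP and is the target of the immunosuppressant mycophenolic acid, and GMP synthetase (Gmps) completes the branch. Hprt salvages hypoxanthine and guanine back to IMP and GMP. In the pyrimidine pathway Cad carries the opening steps, Umps makes UMP, Ctps converts UTP to CTP, and the uridine-cytidine kinases Uck2 and Uckl1 belong to the salvage of uridine and cytidine. Proliferating lymphocytes are known to depend strongly on de novo synthesis, the stepwise build-up, whereas mature neutrophils do not divide.

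Impdh2-ps (ENSMUSG00000071041) is annotated as a processed pseudogene of 1 exon on the plus strand of chromosome 8 (100030558 to 100032102, GRCm38), 1545 bases long. Impdh2 (ENSMUSG00000062867) lies on the plus strand of chromosome 9 (108560286 to 108565584), has up to 14 exons, and has a coding sequence of 1545 bases as well. A base-by-base comparison of the GENCODE sequences found 4 differences, or 99.74% identity. Counted from the first base of the start codon, with the Impdh2 base first, these were C270T, T882C, A891G and C1135T. The first 3 are synonymous and C1135T changes an amino acid. The annotated pseudogene has 514 codons before its stop and 0 internal stop codons. The stretches around the differences are shown because within the coding sequence only reads that cover these positions separate the pair. Capitals mark the bases that differ, and the chromosome 9 spans of bases 862 to 911, 1115 to 1155 and 1486 to 1545 include an intron that is not printed.
Impdh2, coding bases 250 to 290, chr9:108561783-108561823: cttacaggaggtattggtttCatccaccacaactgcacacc
Impdh2-ps, chr8:100030807-100030847: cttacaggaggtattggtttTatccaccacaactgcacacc
Impdh2, coding bases 862 to 911, chr9:108563463-108563596: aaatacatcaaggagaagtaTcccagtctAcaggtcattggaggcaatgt
Impdh2-ps, chr8:100031419-100031468: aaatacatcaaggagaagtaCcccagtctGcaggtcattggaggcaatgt
Impdh2, coding bases 1115 to 1155, chr9:108564743-108564870: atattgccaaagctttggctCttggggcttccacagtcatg
Impdh2-ps, chr8:100031672-100031712: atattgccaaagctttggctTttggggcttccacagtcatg

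After the last difference, 410 bases up to and including the stop codon were identical. The last 60 of them are shown because the libraries hold tags from near the 3′ ends of transcripts, and here the pair has no differing base to capitalise.
Impdh2, coding bases 1486 to 1545, chr9:108565373-108565519: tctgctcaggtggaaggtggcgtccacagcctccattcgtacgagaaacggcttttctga
Impdh2-ps, chr8:100032043-100032102: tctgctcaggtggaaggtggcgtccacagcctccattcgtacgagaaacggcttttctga
The Impdh2 transcript compared continues for 65 bases of 3′ UTR, whereas the annotated pseudogene ends at the stop codon. Of the 1446 windows of 100 bases in Impdh2-ps, 1137 (78.6%) occurred unchanged in an Impdh2 transcript. With windows of 50 bases it was 1337 of 1496 (89.4%). No window of 50 bases occurred in an Impdh1 transcript (0 of 1496). The coding sequences of Impdh1 and Impdh2 were 75.6% identical over 1564 aligned columns. The labels state neither read length nor how reads matching both loci were assigned. The split of counts between Impdh2 and Impdh2-ps is therefore uncertain.

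**Figure D1:**
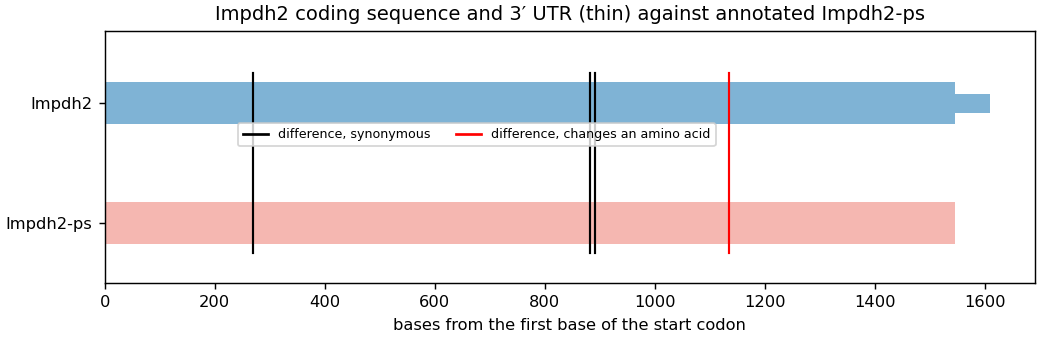
The Impdh2 coding sequence with its annotated 3′ UTR (thin bar) above the annotated Impdh2-ps, against the distance in bases from the first base of the start codon. Vertical lines mark the 4 differing positions, 3 synonymous (black) and 1 that changes an amino acid (red), and the last 410 bases hold none.

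Impdh2-ps had 0, 0 and 7 counts in KO 1, 2 and 3, against 30, 67, 124 and 66 counts in WT 1 to 4. In CPM, counts per 1000000 on TMM-scaled library sizes, that was 0, 0 and 1.36 CPM in the KO libraries and 8.96, 10.5, 24.6 and 17.5 CPM in the WT libraries. The groups did not overlap, and the WT libraries differed 2.75-fold among themselves. A count of 0 allowed up to 0.583 CPM in KO 1 and 0.919 CPM in KO 2 (a floor of 3 counts, counting error only). The fitted log2 fold change of KO over WT was -4.90 ± 1.10 (SE), with KO 1 and 2 at 0. Without KO 3 the fit gave -9.13, a value that depends on the prior count and is no measure of size. Impdh2-ps passed the filter on low counts through its WT values alone.

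As a share of the counts given to Impdh2 and Impdh2-ps together, the pseudogene took 0% of 505 counts in KO 1, 0% of 222 in KO 2 and 1.38% of 509 in KO 3. Those counts of 0 allow shares of up to 0.594% in KO 1 and 1.35% in KO 2. In WT 1 to 4 it took 11.3% of 265, 7.51% of 892, 21.4% of 579 and 15.6% of 422 counts. The Wilson 95% interval for counting error was 0.668 to 2.81% for the highest KO share and 5.96 to 9.43% for the lowest WT share. The shares averaged 0.458 ± 0.794% in KO (SD, n = 3) and 14.0 ± 5.97% in WT (SD, n = 4). WT shares differed from each other by more than counting error, with WT 3 (18.3 to 24.9%) above WT 2. The low pseudogene values in KO are what the genes were chosen for. The shares and their intervals restate them against Impdh2 and do not test them.

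Of the 13 other annotated genes within 1000000 bases of Impdh2-ps on chromosome 8, 2 had any count. Cdh8, a cadherin, had 2 counts, all in WT 4. Gm45297 had 5 and 4 counts in KO 1 and KO 3 and 0 in the other libraries. No neighbour had enough counts for a comparison of levels.

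Impdh2 itself differed little between the genotypes. It stood at 98.2, 68.0 and 97.8 CPM in KO 1 to 3, against 70.2, 129, 90.4 and 94.3 CPM in WT 1 to 4. The KO values lay inside the WT range except KO 2, which was the lowest library, just below WT 1. The log2 fold change was -0.13 ± 0.29 (SE). With the pseudogene counts added, the sum was 98.2, 68.0 and 99.1 CPM in KO, against 79.2, 140, 115 and 112 CPM in WT, and the groups still overlapped. The summed means were 88.4 ± 17.7 CPM in KO (SD, n = 3) and 111 ± 24.8 CPM in WT (SD, n = 4), with a log2 fold change of -0.33 ± 0.29 (SE). Adding the pseudogene thus moved the Impdh2 value by less than its standard error. The 3′ end of Impdh2 also overlaps 48 bases of Ndufaf3, a gene for an assembly factor of respiratory complex I on the opposite strand. Ndufaf3 had 54, 27 and 80 counts in KO and 15, 74, 48 and 49 in WT, and the labels do not state whether counting used strand.

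Impdh1, the other IMP dehydrogenase (ENSMUSG00000003500, minus strand of chromosome 6, 29200434 to 29216364), varied widely within each genotype. It stood at 32.1, 17.5 and 75.8 CPM in KO 1 to 3 and at 37.1, 28.5, 24.6 and 61.4 CPM in WT 1 to 4. KO 3 was the highest and KO 2 the lowest of the 7 libraries, so the KO range enclosed the WT range. The log2 fold change was 0.15 ± 0.51 (SE), and it turned to -0.67 without KO 3, to -0.77 without KO 3 and WT 2, and to 0.53 without WT 4.

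The balance of the IMP dehydrogenases shifted between libraries of the same genotype. Impdh1 took 24.6, 20.4 and 43.7% of the counts of Impdh1 plus Impdh2 in KO 1 to 3, and 34.5, 18.1, 21.4 and 39.5% in WT 1 to 4. Since the tags lie near the 3′ end and do not grow in number with transcript length, the shares are of tags and were not divided by length. KO 3 (Wilson 95% interval 40.4 to 46.9%) and WT 4 (35.6 to 43.5%) lay above KO 1, KO 2, WT 2 and WT 3, whose intervals together ran from 15.8 to 28.0%. Their averages, 29.6 ± 12.4% in KO (SD, n = 3) and 28.4 ± 10.3% in WT (SD, n = 4), differed by less than the spread within either genotype. Adding the pseudogene counts to Impdh2 gave 29.5 ± 12.2% in KO and 25.5 ± 9.58% in WT.

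**Figure D2:**
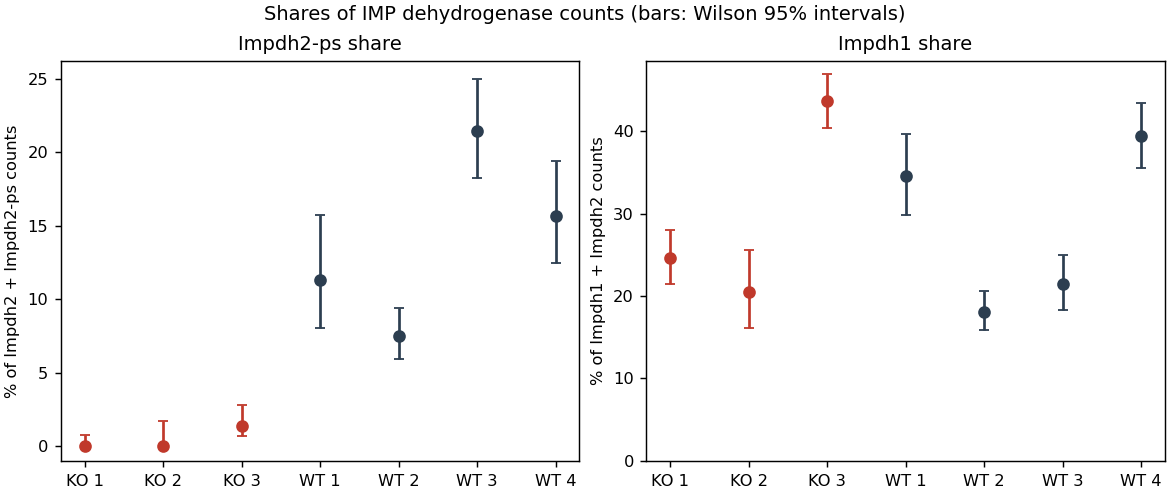
Left, the percentage of Impdh2 plus Impdh2-ps counts given to Impdh2-ps in each library (KO red, WT dark); right, the percentage of Impdh1 plus Impdh2 counts given to Impdh1. Bars are Wilson 95% intervals for counting error: the left panel has the KO libraries at 0 to 1.38% and the WT libraries at 7.51 to 21.4%, while in the right panel the genotypes overlap.

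Uckl1, the uridine-cytidine kinase like gene, was the other transcript whose low KO values led to this choice of genes. Uckl1 (ENSMUSG00000089917) lies on the minus strand of chromosome 2 (181569149 to 181584892) and had 67, 31 and 50 counts in KO 1 to 3, against 58, 150, 158 and 113 in WT 1 to 4. That was 13.025, 9.50 and 9.74 CPM in KO and 17.3, 23.5, 31.4 and 29.9 CPM in WT. The groups did not overlap, with KO 1 and WT 1 nearest to each other. The means were 10.8 ± 1.97 CPM in KO (SD, n = 3) and 25.5 ± 6.45 CPM in WT (SD, n = 4), and the log2 fold change was -1.24 ± 0.38 (SE). It ran from -1.41 to -1.13 when each library was left out in turn and was -1.26 without both WT 2 and KO 3. With the description stem as a covariate it was -0.97. That value rests on KO 1 alone against WT, as the covariate takes up KO 2 and 3. KO 1, which shares stem and Xist level with WT, was the highest KO library. It lay below WT 1, on 67 against 58 counts, and as Uckl1 was chosen for low KO values nothing follows from that order. Uckl1 shares 2790 bases with Zfp512b, a zinc finger gene on the same strand, which had 77, 69 and 78 counts in KO and 44, 101, 64 and 54 in WT. The antisense Uckl1os had 3 counts in KO 3, 5 in WT 1 and 0 elsewhere.

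Across all 12506 tested genes, 1.57% were lower in every KO library than in every WT library, and the same share, 1.57%, were higher. Of the 10 genes described here Impdh2-ps and Uckl1 were lower in that way, and 0 were higher. As those genes were picked on that comparison, nothing follows from their count. EdgeR's quasi-likelihood test with Benjamini-Hochberg adjustment called 0% of the tested genes higher and 0% lower at an adjusted p under 0.05, while 154 genes had an unadjusted p under 0.05. Of the other tools, limma-voom with library quality weights made 0 calls and DESeq2 made 1, for Impdh2-ps. As Impdh2-ps was picked on the same comparison, nothing follows from that call either.

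Uck2, a kinase that phosphorylates uridine and cytidine (minus strand of chromosome 1, 167222883 to 167285320), was the most abundant of the 10 in tag counts. Its values were 131, 146 and 227 CPM in KO 1 to 3 and 121, 197, 142 and 122 CPM in WT 1 to 4. KO 3 and WT 2 were its highest libraries, and the genotypes overlapped (log2 fold change 0.21 ± 0.31, SE). The ratio of Uck2 to Uckl1 tags was 10.04, 15.4 and 23.3 in KO and 6.97, 8.40, 4.52 and 4.07 in WT. It did not overlap between the genotypes, which follows from Uckl1.

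The genes of de novo pyrimidine synthesis overlapped between the genotypes. Cad, the enzyme of the opening steps (plus strand of chromosome 5, 31054780 to 31078479), stood at 34.2, 30.3 and 69.3 CPM in KO and 27.8, 68.1, 58.0 and 60.4 CPM in WT, with KO 3 and WT 2 again the highest. Its log2 fold change was -0.26 ± 0.41 (SE), and it was -0.80 without KO 3. Umps, which makes UMP from orotate (minus strand of chromosome 16, 33954782 to 33967038), stood at 37.7, 17.8 and 21.4 CPM in KO and 23.6, 38.2, 33.6 and 15.9 CPM in WT (log2 fold change -0.12 ± 0.42, SE). Here KO 1 and WT 2 were the highest and WT 4 the lowest. Ctps, a CTP synthase (minus strand of chromosome 4, 120539868 to 120570276), stood at 34.4, 62.5 and 61.7 CPM in KO and 43.0, 80.3, 64.6 and 32.8 CPM in WT. Its log2 fold change was -0.07 ± 0.38 (SE). It was -0.68 with the description stem as a covariate, which leaves KO 1 alone against WT.

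The remaining purine genes overlapped as well. Gmps, the last enzyme of the GMP branch (plus strand of chromosome 3, 63976106 to 64022579), stood at 49.0, 55.4 and 41.5 CPM in KO and 37.9, 82.5, 54.6 and 21.2 CPM in WT. The WT libraries spanned 3.90-fold and enclosed all KO values, and the log2 fold change was -0.02 ± 0.43 (SE). Hprt, on the X chromosome (52988137 to 53021659, plus strand), stood at 68.8, 58.5 and 114 CPM in KO and 67.2, 88.2, 122 and 99.8 CPM in WT. Its log2 fold change was -0.23 ± 0.33 (SE), and -0.63 without KO 3.

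**Figure D3:**
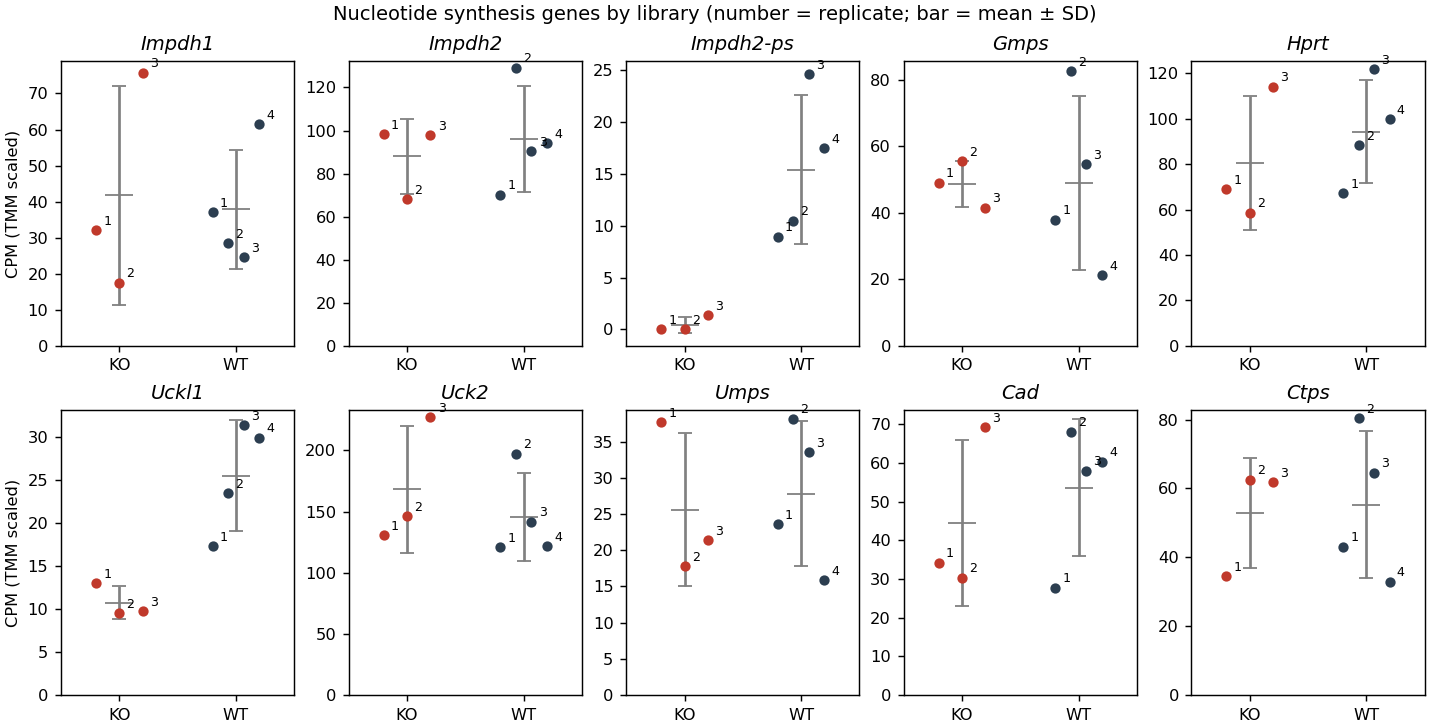
CPM of the 10 genes in each library, KO (red) left of WT (dark), with the replicate number beside each point and grey bars for mean ± SD (KO n = 3, WT n = 4). The genotypes separate for Impdh2-ps, where KO is at 0 to 1.36 CPM and WT at 8.96 to 24.6 CPM, and for Uckl1, and they overlap for the other 8 genes.

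By mean tag level over the 7 libraries the order was Uck2 (155 ± 41.0 CPM, SD, n = 7), Impdh2 (92.6 ± 20.5), Hprt (88.3 ± 24.6), Ctps (54.2 ± 17.7), Cad (49.7 ± 18.3), Gmps (48.9 ± 18.9), Impdh1 (39.6 ± 21.2), Umps (26.9 ± 9.44), Uckl1 (19.2 ± 9.19) and Impdh2-ps (8.99 ± 9.48 CPM). These are 3′ tag levels, not divided by length. Neighbours in this order differed by more than the larger of their SDs for Uck2 and Impdh2, Hprt and Ctps, and Uckl1 and Impdh2-ps, and by less for the other 6 pairs. Impdh2 and Uck2 were also the steadiest, with an SD of log2 CPM over the libraries of 0.31 and 0.35. The median over all tested genes was 0.62, and 12.9% and 17.5% of them varied less than Impdh2 and Uck2. Impdh1 (0.73) and Uckl1 (0.71) varied more than the median, and Impdh2-ps (2.49) more than 99.6% of tested genes.

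**Figure D4:**
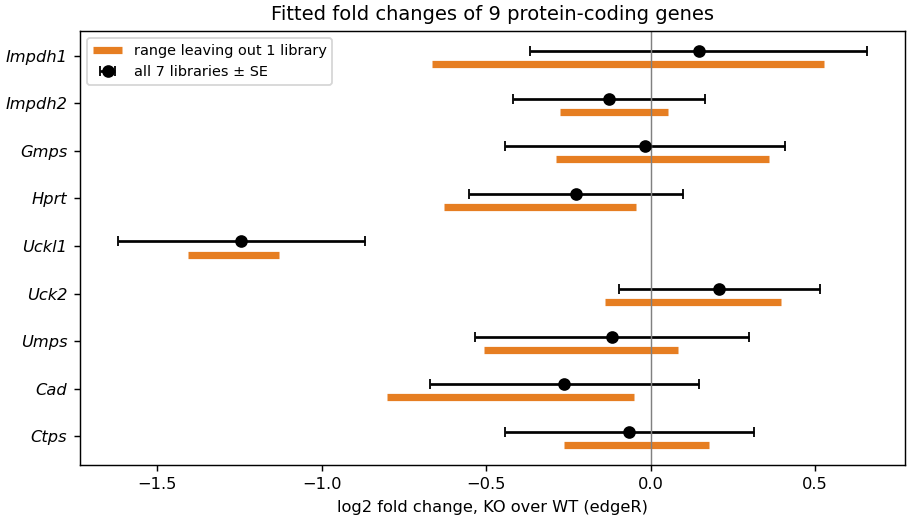
Log2 fold change of KO over WT from edgeR for the 9 protein-coding genes, with black points and bars for all 7 libraries ± SE and orange bars for the range when each library is left out in turn. Uckl1 keeps to -1.41 to -1.13, while the orange bars of Impdh1, Impdh2, Gmps, Uck2, Umps and Ctps cross 0 and those of Hprt and Cad stay below it.

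The libraries also differed in their cell markers, and the nucleotide synthesis genes varied beside them. The summed level of the 9 protein-coding genes was 498, 466 and 718 CPM in KO 1 to 3 and 445, 736, 621 and 537 CPM in WT 1 to 4, so that KO 3 and WT 2 held most and WT 1 least. KO 3 and WT 2 also had the lowest summed levels of 12 mature neutrophil genes, 2212 and 3024 CPM, against 25767 and 16635 CPM in KO 1 and 2 and 31222, 12909 and 13367 CPM in WT 1, 3 and 4. S100a8, a defining neutrophil gene, was present in every library, at 986 to 7695 CPM in KO and 970 to 10487 CPM in WT. The 12 tested T cell genes summed to 460, 583 and 1074 CPM in KO and 389, 776, 590 and 714 CPM in WT. Of these Cd3d, a part of the T cell receptor complex, stood at 115, 153 and 441 CPM in KO and 93.5, 202, 140 and 212 CPM in WT. The members did not move as one: Trac, the receptor's alpha constant gene, stood at 65.1, 71.7 and 64.3 CPM in KO and 69.3, 75.2, 85.2 and 59.0 CPM in WT, and was picked after its values were seen. The 13 proliferation genes summed to 2080, 2962 and 3483 CPM in KO and 1673, 3591, 3028 and 3351 CPM in WT, with Mki67, the marker of cycling cells, at 222 to 427 CPM in KO and 215 to 446 CPM in WT. In bulk libraries a difference in the number of cells of a type cannot be told apart from one in RNA per cell, and the part of these markers in the gene values was not tested. Beside the neutrophil sums above, Uckl1 stood at 13.025, 9.50 and 9.74 CPM in KO 1 to 3 and at 17.3, 23.5, 31.4 and 29.9 CPM in WT 1 to 4. The relation of Uckl1 to these sums was not tested.

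Markers of other cells were also present. Over all 12506 tested genes, 6428 had a log2 fold change above 0 and 6078 below. Of 11 monocyte and macrophage genes, 11 had a log2 fold change above 0 (median 0.83), with sums of 1692, 903 and 336 CPM in KO and 721, 245, 594 and 702 CPM in WT. Of 7 B cell genes, 6 were above 0 (median 0.57), with sums of 391, 248 and 340 CPM in KO and 121, 382, 496 and 343 CPM in WT. Of 12 tested T cell genes 9 were above 0 (median 0.23), of 12 mature neutrophil genes 5 (median -0.08) and of 13 proliferation genes 4 (median -0.15). No gene of these lists was called by edgeR (0 of 55), and their part in the values of Uckl1 and Impdh2-ps was not tested. The summed levels of these lists overlapped between the genotypes.

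The rest of the nucleotide pathway was described with 7 lists of 90 genes, of which 89 were in the table and 74 were tested. EdgeR called 0 of the 74 higher and 0 lower in KO, with 0 at an unadjusted p under 0.05 and adjusted p = 0.999948 as the smallest value. Of these 39 had a log2 fold change above 0 and 35 below. Only Dguok, the mitochondrial deoxyguanosine kinase, had KO libraries all below the WT libraries, at 25.9, 25.7 and 29.6 CPM in KO and 42.1, 38.4, 32.8 and 30.7 CPM in WT, and 0 had them all above. That is 1 of 74, beside the 1.57% of all tested genes.

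No gene of de novo purine synthesis passed the test. Of its 10 tested genes 9 had a log2 fold change below 0, beside 6078 of all 12506 tested genes, and the list median was -0.17, beside 0.01 over all tested genes. That median was -0.04 without KO 1, -0.06 without WT 2, -0.35 without WT 1 and -0.45 without KO 3. Gart, a trifunctional enzyme of the pathway, had -0.43 ± 0.34 (SE) and the phosphoribosyl pyrophosphate synthetase Prps2 -0.44 ± 0.35. Its relative Prps1 had 0.34 ± 0.36, and -0.10 without KO 3. The genes of serine and folate one-carbon metabolism, which feed carbon into purines, were above 0 for 8 of 9 tested genes, beside 6428 of all 12506, with a median of 0.15 that was -0.13 without KO 3. Mthfd1l, a mitochondrial formyltetrahydrofolate synthetase, had 0.39 ± 0.34 (SE), and -0.14 without KO 3, and the cytosolic Mthfd1 -0.39 ± 0.35. No gene of this list passed the test.

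In the other 5 lists no gene passed either, and the medians with all libraries lay between -0.05 and 0.09. Without KO 3 they were -0.42 for nucleotide kinases, -0.40 for Myc and nucleolar genes and -0.36 for deoxynucleotide genes, where the median of all tested genes was -0.05. Single libraries moved several of the genes named: Dck had -0.15 without KO 1 and 0.97 without WT 3, Tk2 0.03 without KO 2, and Ak4 -0.82 without KO 3. Purine salvage and breakdown had 7 of 12 tested genes above 0 (median 0.07), with Dck, deoxycytidine kinase, at 0.47 ± 0.55 (SE) and Ampd3, an AMP deaminase, at -0.62 ± 0.38. Other pyrimidine genes had 7 of 10 above 0 (median 0.09), where Ctps2, the second CTP synthase, stood at -0.38 ± 0.45 and the mitochondrial thymidine kinase Tk2 at 0.56 ± 0.50. Deoxynucleotide genes had 5 of 11 above 0 (median -0.05), with the ribonucleotide reductase subunit Rrm2b at 0.56 ± 0.39 and thymidylate kinase Dtymk at -0.57 ± 0.56. Nucleotide kinases had 5 of 10 above 0 (median 0.02), and the adenylate kinase Ak4 had -0.39 ± 0.30 (SE). Myc and nucleolar genes had 6 of 12 above 0 (median 0.03). Myc, a transcription factor known to activate many nucleotide synthesis genes, was low at 2.14, 6.13 and 4.87 CPM in KO and 5.38, 10.2, 12.3 and 8.74 CPM in WT, and the groups overlapped (log2 fold change -1.07 ± 0.60, SE).

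**Figure D5:**
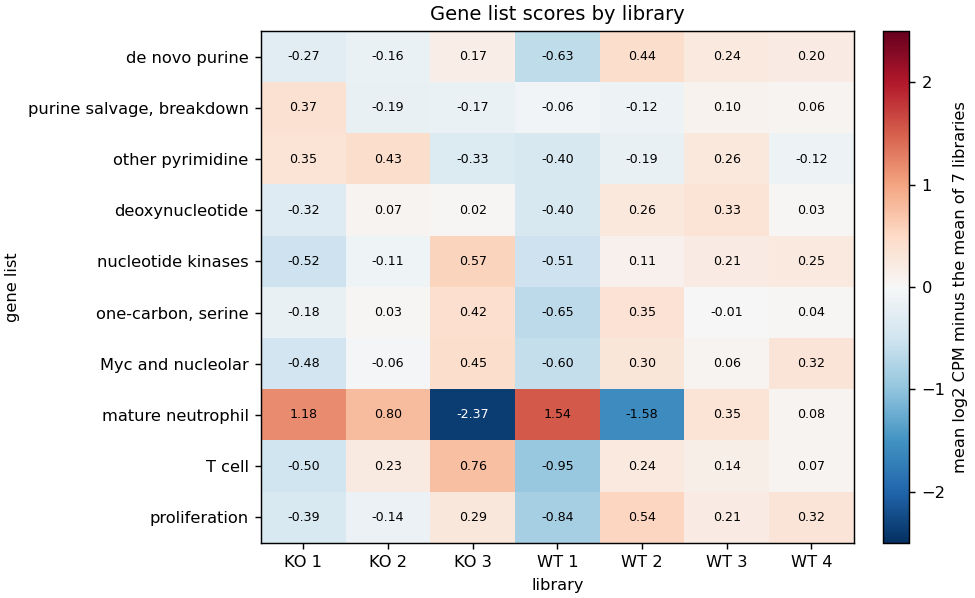
Mean log2 CPM of each gene list in each library, minus the mean of the 7 libraries for that list (red higher, blue lower), KO libraries left of WT. The mature neutrophil row runs from -2.37 in KO 3 to 1.54 in WT 1, and in WT 1 the de novo purine (-0.63), one-carbon (-0.65) and proliferation (-0.84) rows are at their lowest.

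Genes with the most similar pattern over the 7 libraries were found by the root mean square difference of centred log2 CPM among 8385 named genes. For Uckl1 the nearest was Gnb2, a G protein beta subunit gene, with a difference of 0.08 on the log2 scale, where the next gene, Tmem251, had 0.22 and the median gene 0.79. Gnb2 stood at 65.7, 47.2 and 43.6 CPM in KO and 81.3, 102, 136 and 143 CPM in WT. Its low KO values follow from the search, as Uckl1 was chosen for low KO values. For Impdh2 the nearest were Dnaja1 (0.09), a heat shock co-chaperone, Rnf138 (0.10), Ube3a (0.11), Ppp1ca (0.12) and Prkcsh (0.12), beside a median of 0.52. For Impdh1 they were Naa38 (0.15), Mpdu1 (0.18), Igsf8 (0.18), Ubl5 (0.18) and Ppm1g (0.20), beside a median of 0.83. None of the 10 nucleotide synthesis genes was among the nearest 5 of these 3, and the other 7 were not searched. Impdh2-ps could not appear among the nearest, as its mean log2 CPM lay below the limit of 3.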

How the data were processed

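RNA was purified on columns, treated with DNase and made into QuantSeq libraries from polyA RNA, per the labels' protocols. The authors deposited 1 table of whole-number counts for 51789 Ensembl genes in 7 libraries. The tools RSEM 1.2.3 and DESeq2 and the build mm10 are named, without roles, per the submitters' processing notes. RSEM gives expected counts, so the values may be rounded. Totals ran from 3228292 to 5657192 counts, and 3 counts stood for 0.470 to 0.919 TMM-scaled CPM.

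Symbols matched 51596 genes. Coordinates are 1-based and they and the transcript sequences come from GENCODE M21 (GRCm38, the build of mm10). EdgeR 4.0.16 in R 4.3.3 used filterByExpr (12506 genes, 99.6% of counts), TMM scaling, robust quasi-likelihood tests and Benjamini-Hochberg adjustment over all genes. Log2 CPM carries a prior count of 2. SE comes from the F statistic. The fit was tested on simulated data. Its common coefficient of variation between libraries, beyond counting error, was 0.56. With that spread and 3 KO and 4 WT libraries, a lack of calls does not show that genes were unchanged. Alternatives were DESeq2 1.42.0, limma-voom 3.58.1 with library quality weights, RLE scaling, other filters, left-out libraries, a replicate block and a description covariate.

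The 10 genes, the 12 lists and the rules were chosen with earlier results of these data known. Named pathway genes were up to 2 per list and direction with the smallest unadjusted p. Examples were taken from these, and 1 gene under this rule is not reported here. Similar genes needed 3 or more as mean log2 CPM and a symbol that is no clone or predicted name. Intervals and floors cover counting error only.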

Additional observations from a re-analysis of the deposited data

How the results depend on the processing

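EdgeR called 0 genes with all libraries, with RLE scaling, without the filter, with a 5 CPM filter and without each library (0 to 0). The description covariate leaves KO 1 alone against WT, so its gene counts are not given. It also called 0 without WT 2 and KO 3 together, a setting added after seeing the data. Limma-voom with library quality weights called 0. DESeq2 called 1, Impdh2-ps, which was chosen for its low KO values, so nothing follows from that call. Pathway genes called numbered 0 in each of the settings with counts given (0 to 0 without each library). The replicate block called 0 genes and 0 pathway genes. Same-numbered libraries deviated with r = 0.35, -0.22 and -0.18 across genes, and 1 of 3 KO libraries correlated best with its own number. As the libraries also differed in neutrophil levels, these correlations cannot decide whether the numbers pair samples. Genes at an unadjusted p under 0.05 numbered 154, but 524 in limma-voom, 437 without the filter and 445 without KO 3. They numbered 305 without WT 1, 97 without WT 3, 80 with the block and 349 without WT 2 and KO 3. Over 15 alternatives each, the fold changes of Impdh2-ps, Uckl1, Hprt and Cad kept their sign. Those of Impdh1 kept it in 10, Gmps in 10, Umps in 11, Ctps in 12 and Uck2 in 13, and Impdh2 in 13 of 16. As Impdh2-ps and Uckl1 were chosen for low KO values, nothing follows from their kept sign. By depth, Uckl1 rests on 31 to 158 counts and Impdh2-ps on 0 to 124.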

Other observations

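Some nucleotide genes followed the neutrophil-rich libraries rather than the proliferation markers. They were picked after their values were seen. Upp1, uridine phosphorylase, stood at 268, 134 and 17.9 CPM in KO 1 to 3 and 366, 34.3, 108 and 59.3 CPM in WT 1 to 4. Gda, guanine deaminase, stood at 932, 846 and 56.7 CPM in KO and 897, 115, 383 and 307 CPM in WT. Samhd1, which breaks down deoxynucleotides, stood at 435, 376 and 43.8 CPM in KO and 584, 56.2, 245 and 212 CPM in WT. For each of these the lowest libraries were KO 3 and WT 2, which also had the lowest mature neutrophil levels, and the genotypes overlapped. The part of cell composition was not tested.

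The pyrimidine catabolic genes Dpyd and Dpys, the thymidine phosphorylase gene Tymp and the cytidine deaminase gene Cda had 0 counts in all 7 libraries.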
